A study of Homo sapiens with 9 samples.

Results

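The lysosome and autophagy genes examined here are 35 genes chosen by name: lysosomal proteases, enzymes that degrade glycans and lipids, membrane and transport proteins, subunits of the vacuolar proton pump, 1 transcription factor and genes of autophagy. They were chosen with earlier results of these data known, so shares set beside those of all genes are descriptions. A gene was measured where a probe carrying its symbol was above background (detection p below 0.05) on 3 or more of the 9 arrays, and the brightest such probe stood for the gene. This gave 33 of the 35 genes, out of 12698 genes tested, and all 33 were above background on all 9 arrays. The cysteine protease gene CTSS was above background on 1 array, which was a GSK126 array, and the transcription factor gene TFEB on 0 of 9, so neither was tested.

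The arrays measured RNA of OVISE, an established ovarian clear cell carcinoma line that carries mutated ARID1A, the gene for a DNA-binding subunit of SWI/SNF chromatin remodelling complexes. All groups were 3D cultures in Matrigel, an extract of basement membrane. The GSK126 group received 5 µM GSK126, an inhibitor of EZH2, which methylates histone H3 at lysine 27. The ARID1A group received doxycycline at 1 µg/mL, which induced wild-type ARID1A, and the DMSO group received the vehicle alone. Each group had 3 arrays, and its replicates 1, 2 and 3 came from the labelled batches 1, 2 and 3. Nothing in the labels tells whether these were separate cultures, so the spread behind each p-value may be a technical one. Only the ARID1A group received doxycycline, so the drug and the induced gene cannot be told apart, and a change per cell cannot be told apart from a change in which cells were present. One ARID1A probe was above background on the 3 ARID1A arrays and on 0 of the 6 other arrays. A second, brighter ARID1A probe, ILMN_1797341, was above background on all 9 and showed no rise. Its normalised log2 intensity was 11.03, 10.97 and 10.82 on the ARID1A arrays of batches 1, 2 and 3. The DMSO arrays of batches 2 and 3 gave 11.13 and 11.07, and that of batch 1 lay within the range of the ARID1A arrays. Why the 2 probes differ was not tested.

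The lysosome is the acidic compartment in which cells digest macromolecules. A vacuolar proton pump, the V-ATPase, acidifies it, soluble hydrolases act in its lumen, and heavily glycosylated membrane proteins line it. Autophagy delivers cytoplasm to it: a membrane grows around the cargo, is decorated with lipid-linked LC3 and GABARAP proteins, and fuses with the lysosome. Many of these genes carry E-box elements close to their starts, through which the transcription factors TFEB, TFE3 and MITF can activate them when nutrient signalling through mTORC1 is low.

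The promoters shown are those of the 5 genes that passed the test after ARID1A induction, without or with batch in the model. They were picked by that outcome. TCACGTG lies in this stretch in CTSD, NEU1 and ATP6V0D1, while GPNMB holds only a variant and WIPI1 neither. Shares over all genes are given below for a slightly longer window. The 250 bases before each start are from RefSeq on GRCh38.p14, and capitals mark a match to TCACGTG or, in GPNMB, to the E-box variant TCACATG, on either strand (2 overlapping matches in ATP6V0D1). The stretches are chr11:1763928-1764177, minus strand, for CTSD; chr17:68457497-68457746, minus strand, for WIPI1; chr6:31862822-31863071, minus strand, for NEU1; chr16:67481158-67481407, minus strand, for ATP6V0D1; and chr7:23246525-23246774, plus strand, for GPNMB.
CTSD: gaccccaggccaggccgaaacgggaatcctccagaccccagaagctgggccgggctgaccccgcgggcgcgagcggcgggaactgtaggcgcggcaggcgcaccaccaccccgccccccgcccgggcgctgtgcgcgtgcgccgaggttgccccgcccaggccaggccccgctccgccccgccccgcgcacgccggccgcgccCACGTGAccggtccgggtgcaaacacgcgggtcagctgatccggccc
WIPI1: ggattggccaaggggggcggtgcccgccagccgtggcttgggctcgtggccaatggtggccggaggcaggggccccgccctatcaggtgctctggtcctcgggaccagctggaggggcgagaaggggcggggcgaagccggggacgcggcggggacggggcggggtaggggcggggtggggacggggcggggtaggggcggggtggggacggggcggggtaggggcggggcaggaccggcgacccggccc
NEU1: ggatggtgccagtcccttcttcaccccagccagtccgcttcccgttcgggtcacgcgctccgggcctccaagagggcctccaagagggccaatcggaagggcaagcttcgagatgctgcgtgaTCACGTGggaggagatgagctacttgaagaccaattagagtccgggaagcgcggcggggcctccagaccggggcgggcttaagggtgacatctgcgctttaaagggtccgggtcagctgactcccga
ATP6V0D1: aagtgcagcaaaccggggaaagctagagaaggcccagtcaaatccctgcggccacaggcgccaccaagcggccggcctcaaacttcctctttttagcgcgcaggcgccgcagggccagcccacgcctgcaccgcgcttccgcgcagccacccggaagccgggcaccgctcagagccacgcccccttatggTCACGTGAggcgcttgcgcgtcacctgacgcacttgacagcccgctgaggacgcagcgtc
GPNMB: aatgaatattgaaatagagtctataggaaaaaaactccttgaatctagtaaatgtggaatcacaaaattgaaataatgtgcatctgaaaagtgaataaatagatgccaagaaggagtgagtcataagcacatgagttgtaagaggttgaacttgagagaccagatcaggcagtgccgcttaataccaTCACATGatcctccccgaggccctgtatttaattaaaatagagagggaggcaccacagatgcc
The match began 47 bases before the start of CTSD, 127 before that of NEU1, 60 before that of ATP6V0D1 and 63 before that of GPNMB. WIPI1 had none in its stretch.

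Windows from 250 bases before to 50 after the start were held for 27 of the 35 genes. TCACGTG, searched on both strands, was in 8 of these 27 windows (29.6%), against 3.82% of the windows of 27305 genes. Those 27305 genes include many that were not tested here, so the 2 sets are unlike. Among the tested genes with a window, 582 held TCACGTG and 9573 did not. The 8 genes were ATP6V0D1, CLN3, CTSA, CTSD, GAA, LAMP1, MCOLN1 and NEU1. The E-box CACGTG, which TCACGTG contains, was in the same 8 and in 7.43% of all windows. The longer palindromic CLEAR element, which contains both, was in GAA and MCOLN1 and in 0.381% of all windows, and TCACATG was in GPNMB and TPP1 and in 3.39% of all windows. Of the further genes of the pathway described below, 26 of 140 windows held TCACGTG (18.6%). Many of these genes are known to carry E-box elements, as given above, so these shares describe the list and do not test it. A match is a run of letters and was not tested for binding.

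After ARID1A induction, CTSD and WIPI1 rose, and 28 of the 33 genes had a difference above 0 against DMSO. Values are normalised log2 intensities, a difference is a log2 fold change with its standard error (SE), and a gene was called at a limma p below 0.05 after Benjamini-Hochberg adjustment over all 12698 genes. The 2 genes called higher were 6.06% of the 33, against 2.01% of all genes called higher, and 0 genes were called lower, against 0.835%. With batch as a block, NEU1, GPNMB and ATP6V0D1 were also called higher, which made 5 genes (15.2%, against 3.82% of all genes), and 0 lower (against 2.28%). Among the 11122 genes that, like these, were above background on all 9 arrays, 1.81% were called higher, and 3.72% with the block.

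The median difference of the 33 genes was 0.18, with a range of −0.05 to 0.78, while the median of all genes was −0.003. It was 0.13, 0.19 and 0.22 in batches 1, 2 and 3. Of the 33 genes, 84.8% had a difference above 0, against 49.4% of all genes, and 22 were higher in all 3 batches (66.7%, against 24.2%). All 3 ARID1A arrays lay above all 3 DMSO arrays for 16 genes (48.5%, against 13.3%), and the opposite held for 0 genes (against 11.9%). At an unadjusted p below 0.05, 13 genes were higher (39.4%, against 10.5%) and 0 lower (against 8.71%). Because the list was chosen with earlier results of these data known, these shares are not a test of it.

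**Figure D1:**
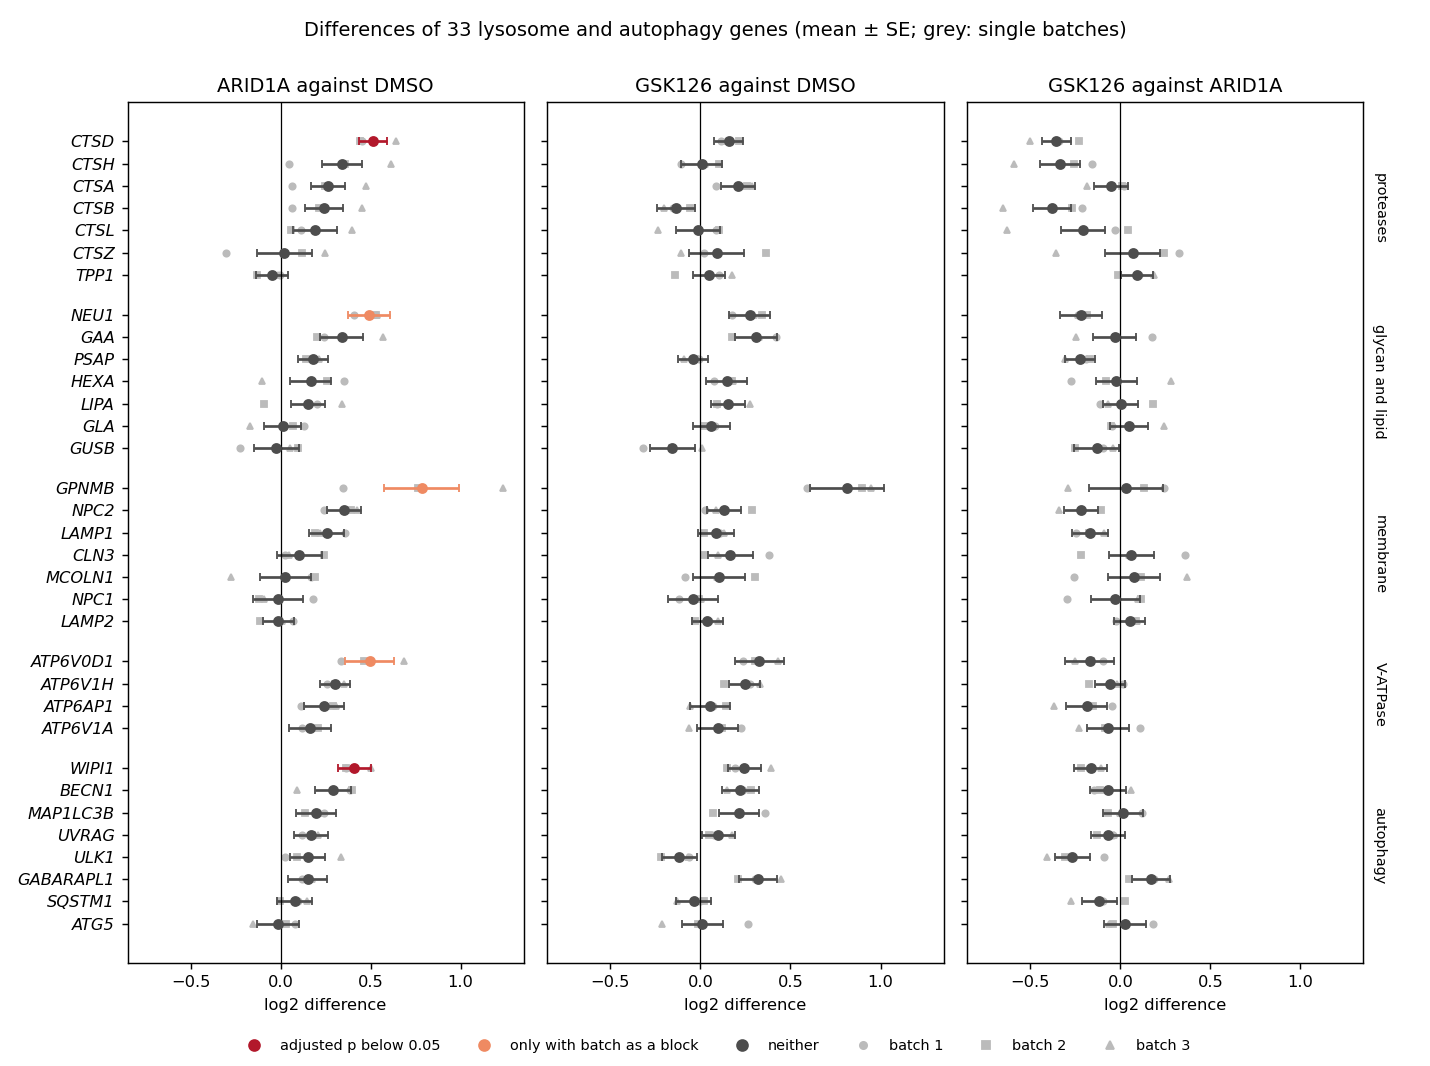
Log2 difference of each of the 33 genes in the 3 comparisons, on the x axis, with 1 gene per row, grouped by role. Large points and bars are the difference ± SE from 3 arrays against 3, grey symbols are single batches, and colour marks the call; in ARID1A against DMSO only CTSD and WIPI1 are called without the block, and 28 points lie right of 0.

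Among the proteases, cathepsin D, the lysosomal aspartic protease encoded by CTSD (probe ILMN_1674038), gave 11.07, 11.05 and 11.20 on the ARID1A arrays of batches 1, 2 and 3, against 10.61, 10.60 and 10.55 on the DMSO arrays. The groups were apart by more than either spread. CTSD rose by 0.51 (SE 0.08, 1.43-fold, adjusted p = 0.0156), with 0.45, 0.44 and 0.64 in the 3 batches. This call was lost when DMSO replicate 1, DMSO replicate 3 or ARID1A replicate 3 was left out (adjusted p = 0.0590 to 0.0616) or any whole batch (0.127 to 0.185), with differences of 0.45 to 0.55.

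The other proteases were not called in either model. CTSH, an aminopeptidase among the cathepsins, differed by 0.34 (SE 0.11, adjusted p = 0.142). CTSA, a serine carboxypeptidase that also protects NEU1, differed by 0.26, and the cysteine proteases CTSB, CTSL and CTSZ by 0.24, 0.19 and 0.02. TPP1, a tripeptidyl peptidase, gave 12.06, 12.13 and 12.12 on the ARID1A arrays, against 12.06, 12.26 and 12.13 on the DMSO arrays, a difference of −0.05 (adjusted p = 0.808). The median of the 7 proteases was 0.24, with batch medians of 0.06, 0.21 and 0.45. In batch 3 CTSH differed by 0.62, CTSA by 0.47, CTSB by 0.45 and CTSL by 0.40, against 0.05, 0.06, 0.06 and 0.12 in batch 1.

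Among the glycan and lipid enzymes, NEU1, the lysosomal sialidase (probe ILMN_1763144), gave 14.15, 14.40 and 14.44 on the ARID1A arrays, against 13.74, 13.87 and 13.90 on the DMSO arrays. Both groups were lowest in batch 1, and the difference was 0.41, 0.53 and 0.54 in the 3 batches. It was 0.49 (SE 0.12, 1.41-fold), with an adjusted p of 0.0578 without the block and 0.0151 with it. GAA, the acid alpha-glucosidase that breaks down glycogen, differed by 0.34 (SE 0.12, adjusted p = 0.163), and its groups did not overlap. PSAP, the precursor of the saposin activators, differed by 0.18, HEXA, a hexosaminidase subunit, by 0.17, LIPA, the acid lipase, by 0.15, and GLA, the alpha-galactosidase, by 0.01. GUSB, the beta-glucuronidase, gave 10.50, 10.82 and 10.48 on the ARID1A arrays, against 10.72, 10.73 and 10.43 on the DMSO arrays, which overlapped (difference −0.03, adjusted p = 0.938). The median of the 7 enzymes was 0.17.

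**Figure D2:**
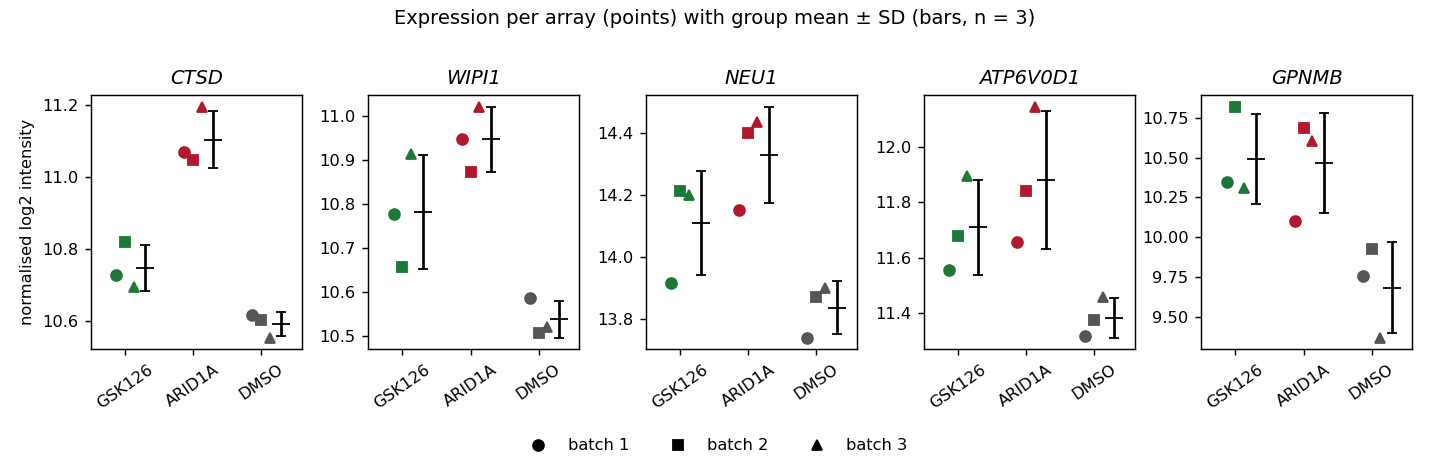
Normalised log2 intensity (y axis, a separate scale in each panel that does not start at 0) of the 5 genes called after ARID1A induction without or with the block, in the GSK126, ARID1A and DMSO groups. Each point is 1 array, its shape the batch, and the bar the mean ± SD of 3 arrays; in all 5 panels the ARID1A points and the GSK126 points lie above the DMSO points.

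Among the membrane and transport proteins, GPNMB, a transmembrane glycoprotein of lysosomes and melanosomes (probe ILMN_1801205), had the widest spread among the called genes. It gave 10.10, 10.69 and 10.60 on the ARID1A arrays, against 9.75, 9.92 and 9.37 on the DMSO arrays. The groups did not overlap, and the difference was 0.35, 0.76 and 1.24 in the 3 batches. It was 0.78 (SE 0.21, 1.72-fold), with an adjusted p of 0.0801 without the block and 0.0344 with it. NPC2, which carries cholesterol in the lumen, differed by 0.35 (SE 0.09, adjusted p = 0.0866, and 0.0540 with the block), and its membrane partner NPC1 by −0.01. LAMP1, a main glycoprotein of the lysosomal membrane, differed by 0.26 (adjusted p = 0.202), CLN3, a membrane protein mutated in Batten disease, by 0.10, and MCOLN1, the calcium channel of the lysosome, by 0.03. The median of the 7 membrane and transport genes was 0.10, with batch medians of 0.18, 0.19 and 0.05.

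LAMP2, the second main membrane glycoprotein, depended on the probe. Its brightest probe, ILMN_2279961, gave 13.70, 13.73 and 13.70 on the ARID1A arrays, against 13.62, 13.85 and 13.69 on the DMSO arrays, a difference of −0.01 (adjusted p = 0.954 over genes). Probe ILMN_1673282 gave 13.40, 13.41 and 13.66 on the ARID1A arrays, against 12.84, 12.94 and 12.95 on the DMSO arrays. These did not overlap, and the difference was 0.58 (SE 0.10, adjusted p = 0.0314 over all 23014 probes kept). ILMN_1659753 differed by 0.44, ILMN_1917290 by 0.43 and ILMN_2243687 by 0.29 without a call (adjusted p = 0.0729, 0.0928 and 0.268 over probes), and ILMN_1752351 by −0.09. LAMP2 is spliced into isoforms with different last exons, and which of them each probe reads was not analysed here. Over the 33 genes, 16 further probes of 11 genes were above background, and 11 had the sign of the brightest probe. The 5 exceptions were 4 LAMP2 probes and the second UVRAG probe, at −0.15. The second GPNMB probe, ILMN_2407389, differed by 0.79.

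**Figure D3:**
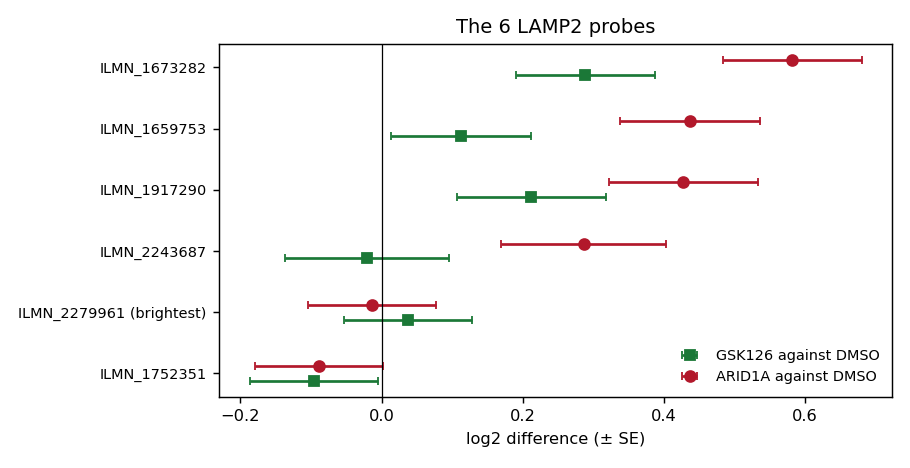
Log2 difference ± SE (x axis, 3 arrays against 3) of the 6 LAMP2 probes, 1 per row, for GSK126 against DMSO (squares) and ARID1A against DMSO (circles). For ARID1A the 6 probes run from −0.09 to 0.58, and the brightest, ILMN_2279961, lies at −0.01.

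In the V-ATPase, ATP6V0D1, a subunit of the membrane sector (probe ILMN_1795826), gave 11.66, 11.84 and 12.15 on the ARID1A arrays, against 11.32, 11.37 and 11.46 on the DMSO arrays. Its difference was 0.34, 0.47 and 0.68 in the 3 batches and 0.50 overall (SE 0.14, 1.41-fold), with an adjusted p of 0.0905 without the block and 0.0228 with it. ATP6V1H, of the cytosolic sector, differed by 0.30 (SE 0.08, adjusted p = 0.0934), and its groups did not overlap. ATP6AP1, an accessory subunit, differed by 0.24, and ATP6V1A, which holds the catalytic site, by 0.16. The difference was above 0 for these 4 genes in all 3 batches, with a median of 0.27.

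Among the autophagy genes, WIPI1 encodes a protein that binds phosphoinositides on the forming autophagosome (probe ILMN_1781386). It gave 10.95, 10.87 and 11.02 on the ARID1A arrays, against 10.59, 10.51 and 10.52 on the DMSO arrays, and the groups did not overlap. WIPI1 rose by 0.41 (SE 0.09, 1.33-fold, adjusted p = 0.0481), with 0.36, 0.36 and 0.50 in the 3 batches. This call was lost in all 9 fits that left out an array or a batch (adjusted p = 0.0806 to 0.280, difference 0.36 to 0.45) and with adjustment over all probes (0.0777). BECN1, a subunit of the phosphatidylinositol 3-kinase complex that starts autophagosomes, differed by 0.29 (SE 0.10, adjusted p = 0.161), and its partner UVRAG by 0.17. Neither pair of groups overlapped. The ubiquitin-like proteins on autophagosomes differed by 0.20 (MAP1LC3B) and 0.15 (GABARAPL1), the initiating kinase ULK1 by 0.15 and the cargo receptor SQSTM1 by 0.08. ATG5, part of the enzyme that attaches them to lipid, gave 10.49, 10.45 and 10.59 on the ARID1A arrays, against 10.41, 10.42 and 10.75 on the DMSO arrays, which overlapped (difference −0.01). The median of the 8 autophagy genes was 0.16.

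Genes with TCACGTG in the window had a median difference of 0.30 in ARID1A against DMSO (8 genes, all 8 above 0), and those without it 0.15 (18 genes, 14 above 0). Over all genes tested the medians were 0.03 with the match (582 genes) and −0.0003 without it (9573 genes). For the further pathway genes they were 0.17 with it (25 genes) and 0.08 without it (101 genes). In GSK126 against DMSO the medians were 0.19 with and 0.06 without the match for the lysosome and autophagy genes, 0.05 with and 0.06 without it for the further pathway genes, and 0.001 with and −0.004 without it for all genes. These are descriptions with no test. TFEB itself was at background. Its relatives TFE3, MITF and TFEC, named here after their values were seen, differed by 0.02, 0.08 and −0.01 in ARID1A against DMSO and by −0.06, 0.11 and −0.16 in GSK126 against DMSO, with 0 calls.

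Further genes of the pathway, 181 in 8 lists, showed a smaller shift of the same sign: 159 were tested, 119 had a difference above 0 in ARID1A against DMSO, and the median was 0.10. In this comparison 0 were called lower (against 0.835% of all genes). The share called higher was near that of all genes, with 4 genes (2.52%, against 2.01%). They were MAN2B1, a lysosomal alpha-mannosidase, at 0.52 (SE 0.09, adjusted p = 0.0190), SMPD1, the acid sphingomyelinase, at 0.71 (SE 0.15, adjusted p = 0.0428), SLC29A3, a nucleoside transporter of lysosomes, at 1.33 (SE 0.23, adjusted p = 0.0206), and ATP6V1B1, a V-ATPase subunit known from kidney and inner ear, at 0.67 (SE 0.13, adjusted p = 0.0322). SLC29A3 averaged 9.33 ± 0.24 on the ARID1A arrays and 8.00 ± 0.44 on the DMSO arrays (SD, n = 3 each). With the block 9 were higher (5.66%, against 3.82%) and 1 lower (against 2.28% of all genes). The added genes include the LC3-processing protease ATG4A at 0.64 (block adjusted p = 0.00767), the sorting receptor SORL1 at 0.63 (0.0273), VPS18, a subunit of the tethering complex for lysosome fusion, at 0.45 (0.0477), and GNPTAB, which makes the mannose 6-phosphate tag, at 0.42 (0.0391). Also higher was the protease CTSV at 0.46 (0.0200), and lower the V-ATPase subunit TCIRG1 at −0.53 (0.0281), both named after their values were seen.

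By list, the medians in ARID1A against DMSO were 0.16 for 31 other hydrolases, 0.06 for 26 other lysosomal membrane proteins, 0.14 for 15 other V-ATPase subunits, 0.06 for 12 sorting genes and 0.10 for 22 genes of the TFEB family and mTORC1. They were 0.06 for 19 genes of autophagy initiation, 0.06 for 11 of LC3 conjugation and 0.11 for 23 autophagy receptors and fusion genes. In the mTORC1 list, with 0 calls in either model, the smallest p-values were those of RRAGC, a Rag GTPase, at 0.28 (adjusted p = 0.0956) and of TSC2, an inhibitor of mTORC1, at 0.20 (0.247). In the initiation list, also with 0 calls, they were those of ZFYVE1, a marker of nascent autophagosome sites, at 0.29 (0.192) and TMEM41B, a lipid scramblase, at −0.16 (0.326). Among the receptors and fusion genes the fusion SNARE VAMP8 differed by 0.43 (0.131), and in the conjugation list ATG10 differed by −0.24 (0.218).

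**Figure D4:**
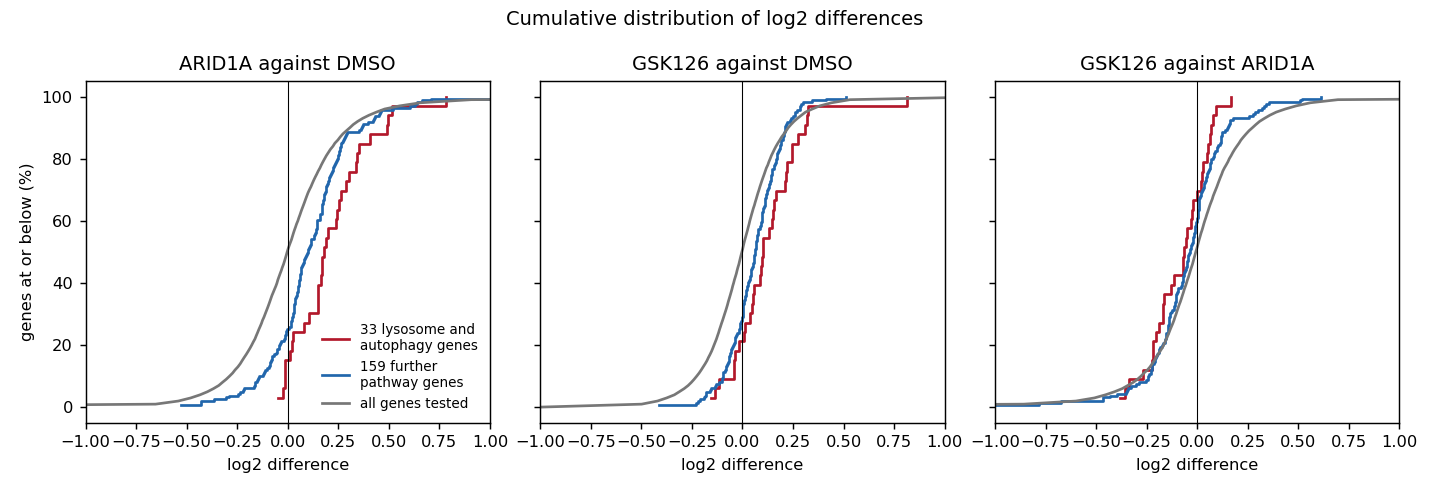
Share of genes (y axis, percent) with a log2 difference at or below the value on the x axis, which is cut at −1 and 1, for the 33 lysosome and autophagy genes, the 159 further pathway genes and all 12698 genes. In ARID1A against DMSO the medians are 0.18, 0.10 and −0.003, in GSK126 against DMSO 0.10, 0.06 and −0.003, and in GSK126 against ARID1A −0.07, −0.04 and −0.007.

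With GSK126, none of the 33 genes was called against DMSO, nor was any other gene. limma gave 0 of 33 and 0 of 12698 genes (0%), without and with the block, while at an unadjusted p below 0.05 it gave 7 of the 33 genes higher (21.2%, against 4.61% of all genes) and 0 lower (against 4.73%). The median difference was 0.10, with 26 genes above 0 and 7 below (78.8% above, against 49.3% of all genes), and batch medians of 0.09, 0.10 and 0.10. In 18 genes the difference was above 0 in all 3 batches (54.5%, against 19.3%), and in 10 the GSK126 arrays all lay above the DMSO arrays (30.3%, against 7.51%). The comparison uses the same DMSO arrays as that of ARID1A against DMSO, so the signs of both are not independent.

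GPNMB gave 10.35, 10.82 and 10.31 on the GSK126 arrays, against 9.75, 9.92 and 9.37 on the DMSO arrays, and the groups did not overlap. Its difference was 0.81 (SE 0.21, 1.76-fold, adjusted p = 0.330), with 0.59, 0.90 and 0.95 in the 3 batches, and 0.70 by its second probe. ATP6V0D1 gave 11.56, 11.68 and 11.89 on the GSK126 arrays, against 11.32, 11.37 and 11.46 on the DMSO arrays (difference 0.33, SE 0.14, adjusted p = 0.522). GABARAPL1 gave 13.90, 14.04 and 14.05 on the GSK126 arrays, against 13.60, 13.84 and 13.60 on the DMSO arrays (difference 0.32, SE 0.11, adjusted p = 0.441). In both genes the lowest GSK126 array lay just above the highest DMSO array.

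NEU1 gave 13.92, 14.21 and 14.20 on the GSK126 arrays, and WIPI1 10.78, 10.66 and 10.91, all above the DMSO values given above. Their differences were 0.27 (SE 0.12, adjusted p = 0.525) and 0.24 (SE 0.09, adjusted p = 0.480). CTSD gave 10.73, 10.82 and 10.69 on the GSK126 arrays, also above DMSO, with a difference of 0.16 (SE 0.08, adjusted p = 0.601). GAA differed by 0.31, ATP6V1H by 0.25, BECN1 by 0.22, MAP1LC3B by 0.21 and CTSA by 0.21, and of these only BECN1 overlapped between the groups.

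The 3 lowest differences had overlapping groups. GUSB gave 10.40, 10.57 and 10.44 on the GSK126 arrays, against 10.72, 10.73 and 10.43 on the DMSO arrays (difference −0.16, adjusted p = 0.738). CTSB gave 12.85, 12.79 and 12.57 on the GSK126 arrays, against 13.00, 12.85 and 12.77 on the DMSO arrays (−0.14, 0.724), and ULK1 gave 13.38, 13.36 and 13.26 on the GSK126 arrays, against 13.44, 13.58 and 13.33 on the DMSO arrays (−0.12, 0.748). The other 19 genes lay between −0.04 (PSAP, NPC1 and SQSTM1) and 0.16 (CLN3). By role, the median was 0.05 for proteases, 0.14 for glycan and lipid enzymes, 0.10 for membrane proteins, 0.17 for the V-ATPase and 0.16 for autophagy.

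Of the 159 further pathway genes, 0 were called for GSK126 against DMSO in either model, and the median was 0.06. At an unadjusted p below 0.05, 7 were higher (4.40%, against 4.61% of all genes) and 2 lower (1.26%, against 4.73%), so the share of higher genes was near that of all genes. Those with the smallest p in their lists include SMPD1 at 0.51 (adjusted p = 0.387), the fucosidase FUCA1 at 0.27 (0.463), RRAGC at 0.24 (0.441), ZFYVE1 at 0.28 (0.491), the ubiquitin-binding adaptor TOLLIP at 0.35 (0.522) and TCIRG1 at −0.41 (0.421). The others named by the same rule lay between 0.09 for the mannose 6-phosphate receptor M6PR and 0.29 for VPS18, with GABARAPL2 at 0.22, ATG4A at 0.24 and the V-ATPase subunit ATP6V1B2 at 0.26.

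GSK126 against ARID1A gave lower values for most of the 33 genes, 22 below 0 and 11 above, 33.3% above against 48.4% of all genes. It shares its arrays with the 2 comparisons against DMSO, so it is not a separate result. None of the 33 was called by limma: 0 were higher and 0 lower, against 0.953% and 1.54% of all genes, and likewise with the block (against 1.81% and 2.36%). At an unadjusted p below 0.05, limma gave 6 lower (18.2%, against 8.75%) and 0 higher (against 7.71%). The median was −0.07, against −0.007 for all genes, and 13 genes were lower in all 3 batches (39.4%, against 21.9%). In 7 genes the GSK126 arrays all lay below the ARID1A arrays (21.2%, against 11.4%).

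The proteases had a median of −0.21, with batch medians of −0.03, −0.01 and −0.50, far lower in batch 3 than in the other batches. CTSB gave 12.85, 12.79 and 12.57 on the GSK126 arrays, against 13.06, 13.06 and 13.22 on the ARID1A arrays, without overlap (difference −0.38, SE 0.11, adjusted p = 0.106). CTSD gave 10.73, 10.82 and 10.69 on the GSK126 arrays, against 11.07, 11.05 and 11.20 on the ARID1A arrays (−0.36, SE 0.08, adjusted p = 0.0555). Both were called when the model was fitted to the authors' deposited value table, with CTSD at −0.31 (adjusted p = 0.0320). CTSH differed by −0.34 (SE 0.11, adjusted p = 0.169), ULK1 by −0.27, and PSAP and NPC2 by −0.22 each, and in none of these did the groups overlap. The difference of GPNMB between the groups was 0.03, with a 95% confidence interval of −0.44 to 0.49. The remaining 26 genes lay between −0.22 (NEU1) and 0.17 (GABARAPL1), with LAMP1 at −0.17 without overlap.

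Of the 159 further pathway genes, 1 was called higher with GSK126 than with ARID1A (0.629%, against 0.953% of all genes) and 2 lower (against 1.54%). Calls were thus no more frequent here than over all genes. The higher gene was RETREG1, a receptor for autophagy of the endoplasmic reticulum, at 0.61 (SE 0.13, adjusted p = 0.0449). SLC29A3 at −1.37 (SE 0.23, adjusted p = 0.0198) and ATP6V1B1 at −0.67 (SE 0.13, adjusted p = 0.0303) were called lower. SLC29A3 averaged 7.96 ± 0.29 on the GSK126 arrays and 9.33 ± 0.24 on the ARID1A arrays (SD, n = 3 each). The block added CTSV at −0.46 (block adjusted p = 0.0229) and ATG4A at −0.40 (0.0338), both lower. This made 1 higher (0.629%, against 1.81% of all genes) and 4 lower (against 2.36%). In the lists without a call in the model without the block, MAN2B1 differed by −0.35 (adjusted p = 0.0785), the protease LGMN by −0.35 (0.109), GNPTAB by −0.33 (0.133), its partner subunit GNPTG by −0.34 (0.195), and the mTOR-binding inhibitor DEPTOR by 0.35 (0.199). RUBCN, a negative regulator of autophagy, differed by 0.32 (0.242), ATG10 by 0.26 (0.210), the Rag GTPase RRAGD by 0.27 (0.415) and the lipid transfer protein ATG2A by −0.23 (0.326).

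Markers of other cell types, macrophages among them since they hold many lysosomes, were measured beside the lysosome genes. Of 12 macrophage and leukocyte markers, 5 were above background on at least 3 arrays (CD68, AIF1, ITGAM, CD14 and LYZ), and PTPRC, TYROBP, FCER1G, LAPTM5 and CD163 on 0 arrays. The log2 of the summed level of this list was 11.88 to 12.04 on the GSK126 arrays, 11.98 to 12.13 on the ARID1A arrays and 12.01 to 12.14 on the DMSO arrays. CD68, the brightest, dominates this sum, at a mean of 11.50 with ARID1A and 11.55 with DMSO. Of the 5 markers, 2 were higher with ARID1A than with DMSO and 3 lower, from −0.34 (ITGAM) to 0.35 (CD14). Of 5 melanocyte markers on the array PMEL alone was above background, with MLANA, TYR, TYRP1 and SOX10 on 0 arrays, and of 7 fibroblast markers FBLN1 alone passed, with COL1A2 and COL3A1 on 0 arrays. Of 5 endothelial markers VWF was above background on the 3 ARID1A arrays and on 0 of the other 6, while PECAM1, CDH5 and KDR were on 0 arrays. The log2 of the endothelial sum was 8.22 to 8.50 with GSK126, 8.71 to 8.84 with ARID1A and 8.37 to 8.52 with DMSO. VWF averaged 7.28 with ARID1A, 5.69 with GSK126 and 5.76 with DMSO. TIE1 was above background on 2 arrays, so apart from VWF on the ARID1A arrays this sum holds mostly background signal. Of 8 epithelial and clear cell markers 7 were above background on all 9 arrays (PAX8, NAPSA, ANXA4, EPCAM, CDH1, KRT7 and KRT8), and the probe of KRT18 on 0. The log2 of the epithelial sum was 17.43 to 17.45 with GSK126, 17.64 to 17.73 with ARID1A and 17.46 to 17.51 with DMSO, so it was higher on the ARID1A arrays. The markers did not share this rise evenly: 5 were higher with ARID1A than with DMSO and 2 lower. In limma, 1 of the 7 markers was called higher (against 2.01% of all genes) and 0 lower (against 0.835%). At an unadjusted p below 0.05, 3 were higher (against 10.5%) and 0 lower (against 8.71%). For GSK126 against ARID1A, 2 were called lower (against 1.54%) and 0 higher (against 0.953%). Means with ARID1A and DMSO were 15.63 and 15.16 for KRT8, 13.44 and 13.09 for KRT7, and 15.65 and 15.34 for CDH1. The means were 8.33 and 8.14 for NAPSA and 14.04 and 14.02 for PAX8. They were 16.07 and 16.09 for EPCAM and 13.27 and 13.34 for ANXA4. The part of these shifts in the results for lysosome and autophagy genes was not tested.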

How the data were processed

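RNA of 9 OVISE samples was hybridised to an Illumina array of 47323 probes. The deposited table holds 1 linear intensity per probe and array, on a raw scale whose values show neither normalisation nor background subtraction, exported with GenomeStudio per the submitters' processing notes. Beside each intensity the authors' table gives a detection p-value made against negative controls. A second deposited table holds intensity values with the same quantiles on all arrays and was used as an alternative. Its lowest rank correlation with the first table was 1, so it lies close to quantile normalisation without background correction. Between 21317 and 22517 probes per array had a detection p below 0.05, the median raw intensity was 316.645 to 348.539, and the number of arrays limits the precision.

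Processing used limma 3.58.1 (R 4.3.3): neqc (normexp background correction from the detection p-values, offset of 16, quantile normalisation, log2). Probes detected on at least 3 arrays were kept (23014, 48.63%). Genes were named from GEO's platform annotation, updated through Entrez identifiers to RefSeq names. One linear model with a mean per group was fitted to the 9 arrays (lmFit and eBayes, 6 residual degrees of freedom). Tests were two-sided, and p-values were adjusted by Benjamini-Hochberg over 12698 genes. Only the model fit was also run on simulated data, with random spread around each gene's normalised mean and known changes added. Background correction, normalisation and filtering were not simulated.

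Replicates with the same number share a labelled batch, which pairs them across groups. Their deviations from the group mean had correlations of 0.102 to 0.326 for the 9 pairs of the same batch and of −0.227 to 0.042 for the 18 others. Deviations within a group sum to 0, so the 2 ranges depend on each other. A fit with a batch term as replicate block (4 residual degrees of freedom) is given where it changes a call or moves a count by over 1.5 times.

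The genes, pathway lists, markers and motifs were chosen with earlier results of these data known. Genes called in any comparison, without or with the block, and those with the 3 highest and 3 lowest differences against DMSO are given by array. Each pathway list names at most 2 called genes in each direction, or its 2 smallest p. Promoters came from RefSeq (GRCh38.p14, first-listed start of each gene). The build behind the array's design is not given here.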

Additional observations from a re-analysis of the deposited data

How the results depend on the processing

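In ARID1A against DMSO the 2 genes called became 6 of 33 without background correction or on the authors' value table (CTSD, WIPI1, NEU1, GPNMB, ATP6V0D1 and NPC2), 5 with the replicate block, and 1 (CTSD) without the detection filter, with a fit of those 2 groups only, or with adjustment over all probes. The authors' value table and the setting without background correction are close to the same alternative, so they do not back each other up. The 2 calls became 11 with the block on the authors' value table. Over all genes the 361 calls became 629 without background correction, 643 on the authors' value table, 774 with the block, 232 with 2 groups only, 222 over all probes and 1451 with the block on the authors' value table. For the further pathway genes the 4 calls became 15, 16, 10 and 2 under the first 4 of these and 22 under the last. Leaving out 1 array or 1 batch gave 0 to 1 genes called, 25 to 218 over all genes, 0 to 3 in the pathway lists, and a median of 0.15 to 0.22 where the full fit gave 0.18. In GSK126 against DMSO the median of 0.10 became 0.08 without background correction (0.0848) and on the authors' value table (0.0831, also with the block), and 0.0756 to 0.133 without 1 array or batch. The block on the authors' value table called 1 of the 33 genes (GPNMB, 0.65, adjusted p = 0.0254) and 65 over all genes. In GSK126 against ARID1A the 0 genes called became 2 (CTSB and CTSD) without background correction, on the authors' value table and with the block on it, and 1 (CTSD) among genes detected on all arrays. The median of −0.07 became −0.0919 with the mean of a gene's kept probes, and −0.113 to −0.0378 without 1 array or batch. Over all genes the 317 calls became 511, 512, 530, 168, 206 and 1085 in the order above, and 29 to 170 without 1 array or batch. The 3 pathway calls became 5 with the block, 12 with the block on the authors' value table, and 0 to 1 without 1 array or batch. LAMP2 in ARID1A against DMSO turned from −0.01 to 0.58 with probe ILMN_1673282. Where counts fell without an array or batch or with 2 groups, the fit held fewer samples; otherwise the cause was not tested. An offset of 50 gave 3 genes called in ARID1A against DMSO. The settings over all probes, the block on the authors' value table and the LAMP2 probes were chosen after seeing the data. The block changed no other call of the 33 genes. Array signals near background are compressed by the offset, which limits what HEXA, at 7.23 to 7.64, can show.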
